A study of Mus musculus with 20 samples.

Results

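Whole lungs of mice that had breathed cigarette smoke were compared with lungs of mice kept in room air, across all genes measured. The arrays were chosen by their agent and batch labels, Room Air or Cigarette Smoke without losartan in either batch, which took 14 of the 20 arrays of the series. Of these, 7 were room air (RA) and 7 cigarette smoke (CS). Batch 1 held 3 of each and batch 2 held 4 of each. All mice were males of the inbred strain AKR/J, aged 6 to 8 weeks when they were divided into groups. RA mice stayed in filtered air. CS mice breathed the smoke of 2R4F reference cigarettes, a standard research cigarette, from a smoking machine for 2 h a day on 5 days a week. Carbon monoxide in the chamber averaged 350 ppm. The labels' protocol gives 6 to 7 weeks of exposure, while the text for the series gives 2 months. Neither group carried a transgene or received a drug. The labels number the arrays as replicates and do not say that each is a separate mouse, so p-values cover no more than the spread among the arrays, which may be technical.

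Cigarette smoke carries aromatic hydrocarbons, oxidants, nicotine and carbon monoxide into the airways and across the capillary wall. In the lung it is known to switch on detoxifying enzymes through the aryl hydrocarbon receptor, to draw phagocytes into the airspaces and to change the secretions of the airway lining. The lung is also mostly capillary bed, and its endothelium clears amines, prostaglandins and peptides from blood. Genes of neutrophils, heat shock and the circadian clock are given here only where they stand beside another result.

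Levels are log2 of the background-corrected and normalized bead signal, so 1 unit is a doubling, and a change is CS minus RA on that scale with its standard error (SE) from the fit with batch as a term. A gene was called at an adjusted p under 0.05, by limma with Benjamini-Hochberg adjustment over 12719 features, and "rose" or "fell" is used of called genes only. In all 1631 features were called (12.8%), 775 higher in CS (6.09%) and 856 lower (6.73%), and these shares are the background for the counts of gene groups. The changes were mostly small, as 353 of the called features changed by 1.5-fold or more. On 231 features (1.82%) the 7 CS and 7 RA arrays did not overlap. Batch 2 was brighter before normalization, with a median signal of 87.4 to 100.4 per array against 60.1 to 64.4 in batch 1. Within batch 1 alone 83 features were called (0.653%) and within batch 2 alone 701 (5.51%).

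Most markers of lung epithelium and endothelium were present throughout. Of 14 such genes 13 were tested, 12 were detected on all 14 arrays and 0 were called. The mean level of those tested was 11.83 to 12.25 on RA and 11.71 to 12.39 on CS arrays. The groups also stood apart in clock and stress genes. Dbp, a clock output gene, lay at 7.90 to 9.03 on RA and 9.84 to 12.33 on CS arrays, and Hspa1a, a heat shock gene, had a median of 10.79 on RA and 6.43 on CS arrays without overlap. Of 18 tested genes known to be induced by glucocorticoids, 14 fell and 1 rose, and of 55 heat shock and unfolded protein response genes 33 fell and 0 rose. Of 17 neutrophil genes 11 rose and 0 fell. These differences run along the same group boundary as every result below, so their part in it cannot be told apart from that of smoke.

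Cyp1a1, the enzyme that oxidises aromatic hydrocarbons and a standard target of the aryl hydrocarbon receptor, was the one named gene detected on every array of one group and on none of the other. It was not well above background on any of the 7 RA arrays, where its values were 4.26 to 4.46, and was detected on all 7 CS arrays at 4.88 to 7.48 (median 5.44). It was at least 1.97-fold higher in CS (adjusted p = 0.00158, limma). This bound sets the mean of the CS arrays against, on each RA array, the higher of the gene's own signal and the lowest detected signal.

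Promoter windows of 4 genes that rose, from 250 bases before to 50 after the start, are shown because each holds a motif tied to a known regulator of that gene or its class. They are RefSeq sequences of the GRCm38.p6 build. Capitals mark the motif, searched on both strands. The window of Cyp1a1 (chr9:57697363-57697662, plus strand) holds 1 copy of the xenobiotic response element core GCGTG, which 32.4% of all 32851 windows and 51.9% of tested genes that were not called also hold. The window of Retnla (chr16:48842359-48842658, plus strand) holds 1 STAT site (TTC and GAA with 4 bases between them), found in 6.95% of windows and 6.46% of genes not called. That of Pigr (chr1:130826434-130826733, plus strand) holds 1 E-box CACGTG, found in 7.15% and 10.9%. Cirbp (chr10:80167589-80167888, plus strand) has 1 mild cold response element TCCCCGCC, found in 5.38% and 10.5%, and its second annotated start has 0. A match is a description of the letters and not a site of binding.
Cyp1a1: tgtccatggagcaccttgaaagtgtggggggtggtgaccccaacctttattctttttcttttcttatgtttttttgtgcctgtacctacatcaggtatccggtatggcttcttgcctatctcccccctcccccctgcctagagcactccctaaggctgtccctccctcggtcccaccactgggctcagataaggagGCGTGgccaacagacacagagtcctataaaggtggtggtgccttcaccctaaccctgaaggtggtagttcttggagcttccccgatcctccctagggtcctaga
Retnla: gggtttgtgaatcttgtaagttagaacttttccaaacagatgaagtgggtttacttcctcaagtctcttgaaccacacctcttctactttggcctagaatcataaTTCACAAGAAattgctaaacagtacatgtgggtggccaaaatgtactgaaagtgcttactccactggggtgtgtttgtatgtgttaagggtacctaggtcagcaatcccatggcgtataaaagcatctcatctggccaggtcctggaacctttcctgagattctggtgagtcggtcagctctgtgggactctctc
Pigr: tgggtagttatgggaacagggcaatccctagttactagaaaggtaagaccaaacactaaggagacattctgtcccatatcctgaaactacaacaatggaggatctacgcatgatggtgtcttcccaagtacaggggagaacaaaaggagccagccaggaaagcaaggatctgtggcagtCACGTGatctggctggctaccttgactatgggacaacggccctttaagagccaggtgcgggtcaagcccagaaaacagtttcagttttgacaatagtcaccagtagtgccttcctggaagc
Cirbp: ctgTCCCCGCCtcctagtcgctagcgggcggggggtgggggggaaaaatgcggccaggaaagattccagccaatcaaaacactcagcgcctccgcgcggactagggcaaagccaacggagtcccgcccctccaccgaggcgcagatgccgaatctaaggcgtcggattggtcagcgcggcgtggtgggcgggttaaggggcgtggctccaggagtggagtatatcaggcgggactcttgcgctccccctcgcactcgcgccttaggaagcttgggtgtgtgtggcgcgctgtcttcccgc

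Retnla, a small secreted protein that macrophages and airway epithelium make under interleukin 4 and 13, lay at 8.37 to 9.11 (median 8.55) on RA and 10.80 to 12.27 (median 11.28) on CS arrays. The groups were separated by more than their own spread. The change was 2.72 ± 0.21, or 6.59-fold (adjusted p = 1.12e-06, limma), with 2.76 in batch 1 and 2.69 in batch 2. In bulk tissue, more cells of a type and more RNA per cell cannot be told apart. Aoc1, diamine oxidase, which breaks down histamine and putrescine, was at 6.66 to 7.24 on RA and 7.99 to 9.29 on CS arrays and rose 2.91-fold (1.54 ± 0.20, adjusted p = 0.000105). Its groups did not overlap either.

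Pigr, the receptor that carries dimeric immunoglobulin A across epithelium into the airway, was at 6.67 to 8.07 (median 7.15) on RA and 8.05 to 9.33 (median 8.61) on CS arrays. The lowest CS array just overlapped the highest RA array. Pigr rose 2.54-fold (1.34 ± 0.16, adjusted p = 6.98e-05). It was the only called gene among 7 tested genes for immunoglobulins and their transport (14.3%). Il4i1, an L-amino acid oxidase that phagocytes and B cells secrete, was at 4.94 to 6.99 (median 5.51) on RA and 6.82 to 7.41 (median 7.27) on CS arrays and rose 3.10-fold (1.63 ± 0.22). RA 4 alone among the RA arrays reached the CS range.

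Chil1, a chitinase-like protein without enzyme activity that macrophages and epithelium secrete, rose 2.26-fold (RA 9.90 to 10.34, CS 10.51 to 11.99), without overlap. Pglyrp1, a bactericidal peptidoglycan-binding protein also stored in neutrophil granules, rose 2.38-fold (RA 6.07 to 7.15, CS 7.19 to 8.57). Orm1, an acute phase plasma protein, rose 3.09-fold with a slight overlap of the groups. The neutrophil gene count above stands beside these proteins, and its part in them was not tested.

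Scgb3a1, a secretoglobin of airway secretory cells, had the largest increase among called genes that were detected on all 14 arrays and stand outside the lists set aside. It was at 7.35 to 11.27 (median 7.69) on RA and 7.90 to 13.04 (median 12.22) on CS arrays. RA 2 and RA 4 reached 10.59 and 11.27, while CS 6 stayed at 7.90, so the groups overlapped. The change was 3.14 ± 0.77 (adjusted p = 0.013), and a second probe of the gene gave 1.86. Chad, a matrix protein of cartilage, rose 2.35-fold with overlap (1.23 ± 0.32, adjusted p = 0.0176). Ifitm1, a membrane protein that restricts virus entry, rose by 1.41 ± 0.22 on the probe used, but its 2 other kept probes gave -0.02 and 0.13 and were not called. The rest of the 15 largest increases among genes detected on all 14 arrays, with the lists set aside left out, were Cxcl5 (1.71) and Cxcl1 (1.11), chemokines that attract neutrophils, Cx3cr1 (1.17), the fractalkine receptor of monocytes and macrophages, Cd79a (1.11), a chain of the B cell receptor, and Cirbp.

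**Figure D1:**
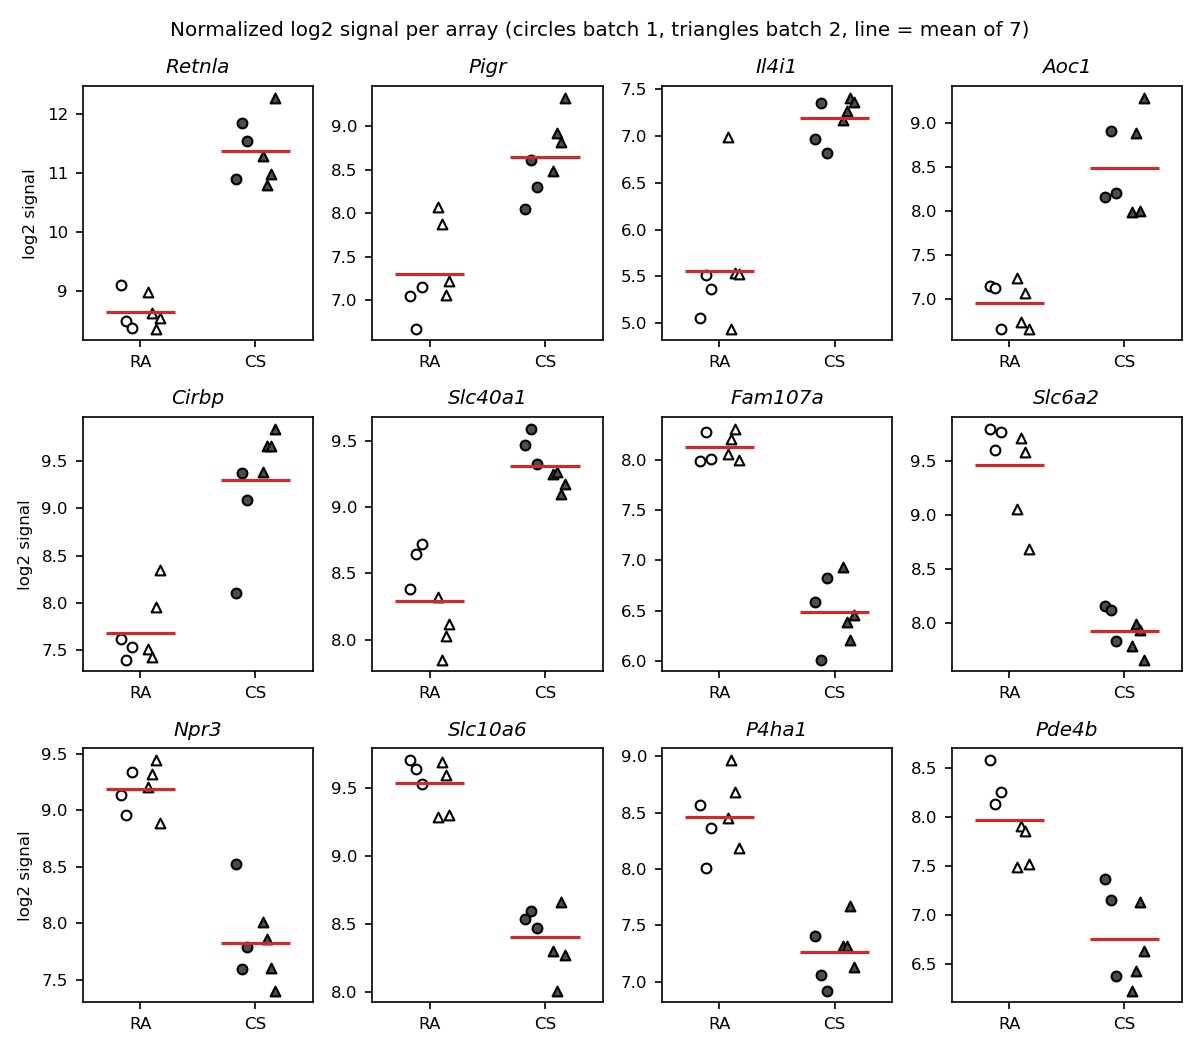
Normalized log2 signal (y axis) of 12 genes on each of the 14 arrays, RA as open and CS as filled symbols, circles for batch 1 and triangles for batch 2, with the mean of each group as a line. Retnla on CS arrays (10.80 to 12.27) and Fam107a on CS arrays (6.01 to 6.93) lie outside the RA range in both batches.

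Fam107a, an actin-associated protein, was at 7.99 to 8.31 (median 8.06) on RA and 6.01 to 6.93 (median 6.46) on CS arrays and fell by 1.64 ± 0.13 on the log2 scale (adjusted p = 1.12e-06, limma). Slc10a6, a transporter of sulphated steroids, fell (RA 9.29 to 9.71, CS 8.01 to 8.66), a 2.19-fold change, and a second probe gave -1.11. Npr3, the receptor that clears natriuretic peptides from blood, fell (RA 8.89 to 9.45, CS 7.40 to 8.52), a 2.57-fold change (adjusted p = 1.87e-05). In all 3 genes the groups did not overlap.

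Slc6a2, the noradrenaline transporter of sympathetic nerves and lung endothelium, was at 8.69 to 9.80 on RA and 7.66 to 8.16 on CS arrays by the brightest probe, a fall of 1.53 ± 0.14 on the log2 scale. Its 2 other kept probes gave -0.25 and -0.31 and were not called, so the size of the change depends on the probe. Tmem252, a membrane protein, fell 2.60-fold (RA 6.62 to 7.28, CS 5.46 to 6.02). Tcim, a small regulator of Wnt signalling, fell 2.22-fold (RA 8.37 to 9.47, CS 7.24 to 8.08). Neither gene's groups overlapped.

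Of 27 tested amine and peptide hormone receptors 3 rose and 3 fell (22.2%). Aplnr, the endothelial receptor of apelin, rose by 0.72 ± 0.11 (RA 7.77 to 8.44, CS 8.38 to 9.14). Chrm3, the muscarinic receptor that contracts airway muscle, rose by 0.40 and Lpar6, a lysophosphatidic acid receptor, by 0.42. Gna14, an alpha subunit of the Gq class, was at 8.11 to 8.49 on RA and 8.79 to 9.22 on CS arrays. It rose 1.60-fold (0.68 ± 0.08, adjusted p = 2.74e-05) without overlap. Of 14 tested RGS proteins, which speed the switching off of G proteins, 2 rose and 2 fell (28.6%). Rgs2, which acts on the Gq class, rose by 0.73 ± 0.09.

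Of 43 tested growth factors and receptor tyrosine kinases 3 rose and 3 fell (14%, near the 12.8% over all features), with a median of 0.001. Vegfc, the main growth factor of lymphatic vessels, was at 8.72 to 9.42 on RA and 8.21 to 8.69 on CS arrays and fell without overlap (-0.62 ± 0.08, adjusted p = 0.000158). Angpt2, a ligand of the endothelial receptor Tek, rose by 0.56 ± 0.08, and its second probe gave 0.18 and was not called. Pdgfb, which recruits pericytes, rose by 0.45, and its second probe gave 0.05. Clec1a, an endothelial and myeloid lectin receptor, rose by 1.02 ± 0.14 on the brightest of 3 probes, with 0.55 (called) and 0.20 (not called) on the others. Clec14a, a lectin of endothelium, rose by 0.50.

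Of 35 semaphorins, plexins and ephrins 3 rose and 3 fell (17.1%). Among the former were Efna1 (0.47) and its receptor class member Epha1 (0.83), and among the latter Efnb1 (-0.54). All 4 probes of Epha1 were higher in CS and 3 of them were called. Of 27 Notch pathway genes 0 rose and 4 fell (14.8%, near the 12.8% over all features). The ligand Dll1 was at 7.07 to 8.06 on RA and 6.17 to 6.96 on CS arrays, without overlap (-0.99 ± 0.15, adjusted p = 0.000481). Dtx4, a ubiquitin ligase of the pathway, fell by 0.48, with a second probe at -0.25 that was not called. The ligand Jag2 fell by 0.47 and the receptor Notch2 by 0.27 on the log2 scale. The calls of Notch2 and Jag2 were the less firm, being kept in 6 and 5 of the 14 fits that each left out 1 array. Of 33 Wnt pathway genes 2 rose and 1 fell (9.09%). Wnt2, a ligand that patterns the embryonic lung, rose by 0.65 ± 0.09.

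**Figure D2:**
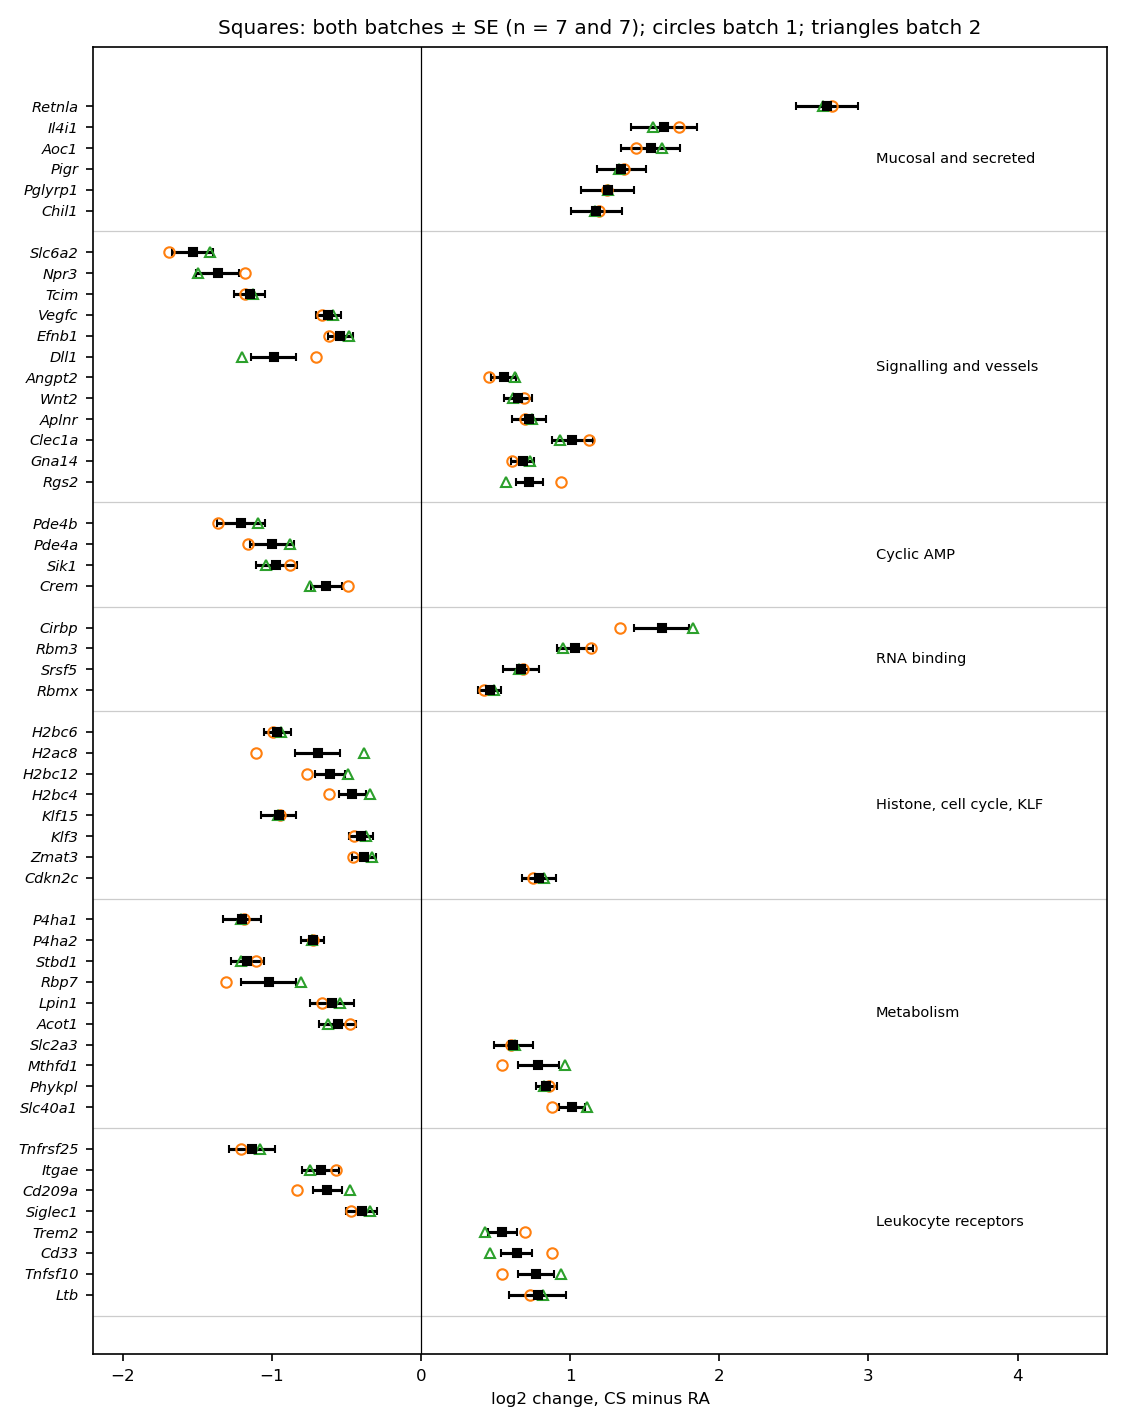
Log2 change, CS minus RA (x axis), of the genes named at left, by group. Squares give the fit over both batches with the SE (n = 7 and 7), circles batch 1 and triangles batch 2. All symbols of a gene fall on the same side of 0, because genes were named only with the same sign in both batches.

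Cyclic AMP is the second messenger of many airway and vessel receptors. Phosphodiesterases of the PDE4 class break it down, Crem and the CREB factors carry it to promoters, and Sik1 is a kinase that limits CREB activity. Of 32 tested genes of cyclic nucleotide signalling 0 rose and 4 fell (12.5%), close to the share over all features, and the median change was -0.06. Pde4b was at 7.49 to 8.59 (median 7.91) on RA and 6.22 to 7.37 (median 6.63) on CS arrays and fell 2.31-fold (-1.21 ± 0.16, adjusted p = 0.000166). Pde4a was at 8.64 to 9.22 on RA and 7.40 to 8.27 on CS arrays and fell 2.00-fold. Both genes were lower on every CS array than on any RA array, as was Sik1, at 6.87 to 7.40 on RA and 5.76 to 6.68 on CS arrays (-0.97 ± 0.14). Crem fell by 0.63 with overlap, and its 2 other probes gave -0.86 (called) and -0.31 (not called). The cyclic AMP response element TGACGTCA stood in the windows of 1.5% of 534 genes that rose and 4.63% of 627 that fell. It stood in those of 3.27% of 7900 genes not called and 2.03% of all 27025 genes with a window, tested or not.

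Cirbp and Rbm3 are RNA-binding proteins known to rise in cells at mildly lowered temperature. Of 26 tested cold-inducible and splicing RNA-binding proteins 5 rose and 1 fell (23.1%). Cirbp was at 7.40 to 8.35 (median 7.54) on RA and 8.11 to 9.84 (median 9.38) on CS arrays and rose 3.06-fold (1.61 ± 0.18, adjusted p = 3.69e-05). A single CS array lay within the RA range. Rbm3 rose by 1.03 ± 0.12 on its brightest probe. The other kept probes of Rbm3 gave -0.75, which was called, and -0.16, so the gene has no single direction on these arrays. Srsf5, a splicing factor, rose by 0.67 ± 0.12 and its second probe gave 1.25. Hnrnpa1 (0.47) and Rbmx (0.46), which bind nuclear RNA, also rose, and Tra2a, a splicing activator, fell by 0.51. Hspa1a, given above, was lower in CS while most of the called genes here rose, and its part in them was not tested.

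Of 17 tested histone genes 1 rose and 4 fell (29.4%). H2bc6 was at 7.58 to 7.96 on RA and 6.60 to 7.01 on CS arrays and fell 1.95-fold without overlap (-0.96 ± 0.09, adjusted p = 4.83e-06). H2bc12 fell by 0.61, H2bc4 by 0.46 and H2ac8, detected on 7 RA and 3 CS arrays, by 0.69 on the log2 scale. H3f3b, which codes for a histone made outside S phase, rose by 0.31. Histone genes are close copies of each other, so a probe may read more than the gene it is named for.

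Kruppel-like factors are zinc finger regulators of endothelial quiescence, metabolism and differentiation. Of 20 tested Kruppel-like and Sox factors 0 rose and 5 fell (25%), all of them Kruppel-like. Klf15, a metabolic regulator induced by glucocorticoids, was at 5.80 to 7.04 on RA and 4.85 to 6.39 on CS arrays and fell by 0.95 ± 0.12 on the log2 scale. Klf3, a repressor, fell by 0.40. The other three, Klf2 (-0.84), Klf4 (-0.78) and Klf9 (-0.32), also stand on the list of immediate early or of glucocorticoid-induced genes. Of 27 p53 targets and growth arrest genes 3 rose and 5 fell (29.6%). Cdkn2c, an inhibitor of Cdk4 and Cdk6, rose by 0.79 ± 0.11, with 0.92 on its second probe, and Plk2, a stress-induced kinase, rose (RA 8.07 to 8.75, CS 8.76 to 9.25). Zmat3, an RNA-binding p53 target, fell by 0.38 and the death receptor Fas by 0.44.

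Among metabolic genes, both prolyl 4-hydroxylase alpha subunits on the list, which modify collagen and are targets of hypoxia-inducible factor, fell without overlap. P4ha1 was at 8.01 to 8.97 (median 8.45) on RA and 6.92 to 7.67 (median 7.32) on CS arrays and fell 2.30-fold (-1.20 ± 0.13, adjusted p = 2.07e-05). P4ha2 was at 8.13 to 8.55 on RA and 7.15 to 7.83 on CS arrays and fell 1.66-fold. Of 23 tested targets of the factor 1 rose and 3 fell (17.4%), and their median was -0.11. Pdk1, which limits pyruvate oxidation, was the one that rose (0.39). Higd1a, a mitochondrial protein, fell by 0.25 with its call kept in 3 of 14 fits that left out 1 array.

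Phykpl, an enzyme that breaks down phosphorylated hydroxylysine, an amino acid of collagen, had one of the most precise increases. It was at 7.57 to 8.28 on RA and 8.45 to 9.14 on CS arrays (0.84 ± 0.07, adjusted p = 2.87e-06), and all 4 of its kept probes were called higher. Slc40a1, ferroportin, which exports iron from macrophages, rose 2.01-fold (RA 7.85 to 8.72, CS 9.10 to 9.59) without overlap (adjusted p = 3.01e-06). Haghl, a glyoxalase-like protein, rose by 0.76 ± 0.08, with 0.86 on its second probe. Mthfd1, an enzyme of folate metabolism, rose by 0.79 ± 0.14 and was the 1 called gene among 15 polyamine and one-carbon enzymes (6.67%).

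Stbd1, which tethers glycogen for delivery to lysosomes, fell 2.24-fold (-1.16 ± 0.11, adjusted p = 5.57e-06), with RA arrays at 9.44 to 10.55 and CS arrays at 8.14 to 9.46. Tppp, a tubulin-bundling protein, fell by 0.87 ± 0.08 on the log2 scale. Cacybp, a calcyclin-binding protein, fell by 1.20 ± 0.16. Rbp7, a retinol-binding protein of fat and endothelium, fell by 1.02 ± 0.19, and 2 of 19 retinoid genes fell in all (10.5%). Of 23 fatty acid oxidation genes 0 rose and 2 fell (8.7%, below the 12.8% over all features), and the median was 0.08. The 2 that fell were Pdk4 (-1.14), which also limits pyruvate oxidation, and the acyl-CoA thioesterase Acot1 (-0.56). Of 24 fatty acid synthesis genes 1 rose and 2 fell (12.5%). The elongase Elovl1 rose (0.44, other probes 0.63 called, 0.55 and 0.01 not called). The phosphatidate phosphatases Lpin1 (-0.60) and Lpin2 (-0.55, kept in 4 of 14 fits that left out 1 array) fell. Of 17 glycolytic genes 2 rose (11.8%), the glucose transporter Slc2a3 (0.62 ± 0.13), whose groups did not overlap, and hexokinase Hk3 (0.50), both known from leukocytes.

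Of 26 tested Fc and paired receptors, which tune phagocytes and lymphocytes, 6 rose and 1 fell (26.9%, against 12.8% over all features), and the median change was 0.17. Trem2, a lipid receptor of macrophages, rose by 0.54 ± 0.10, Cd33, an inhibitory sialic acid receptor, by 0.64 with a second probe at 0.30 that was not called, and Hcst, a signalling adaptor, by 0.38. Lilrb4a (0.65), Fcer2a (0.63) and Trem3 (0.60) rose as well. Siglec1, the sialic acid receptor of resident macrophages, fell by 0.40. Cd209a, a lectin of dendritic cells, was at 6.25 to 6.98 on RA and 5.78 to 6.14 on CS arrays and fell by 0.63 without overlap. Itgae, the integrin of dendritic cells and T cells in epithelium, fell by 0.67 ± 0.12 on its brightest probe, and the others gave -0.52 (called) and -0.16 (not called).

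Of 26 TNF superfamily ligands and receptors 6 rose and 3 fell (34.6%), with a median of 0.21. Tnfsf10, the ligand TRAIL, was at 7.16 to 8.13 on RA and 8.19 to 8.83 on CS arrays and rose by 0.77 ± 0.12. Ltb, a lymphotoxin chain needed for lymphoid tissue, rose by 0.78 ± 0.19. The receptors Tnfrsf13c (0.73), of B cells, Cd27 (0.55), of lymphocytes, Tnfrsf19 (0.32) and Tnfrsf4 (0.28) made up the rest. Tnfrsf25, a receptor of T cells, fell by 1.13 ± 0.15 on its brightest probe, while its second probe gave -0.10 and was not called. Fas and Tnfrsf21 (-0.31), both death receptors, were the others that fell.

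Of 22 Toll-like receptor genes 3 rose and 1 fell (18.2%). Tlr1, which senses bacterial lipopeptides, was detected on 2 RA and 7 CS arrays and rose by 0.48. Tlr6, its close relative, rose by 0.33 with the call kept in 6 of 14 fits that left out 1 array, and Ly86, a partner of a related receptor, by 0.40. Tlr4, the receptor of endotoxin, fell by 0.32 ± 0.08. Of 19 complement genes 2 rose and 1 fell (15.8%, near the 12.8% over all features). Hc, the fifth component, of which AKR/J mice are known to carry an inactive allele, fell by 0.62 ± 0.12. The regulator Cd55 rose by 0.42 and factor B, Cfb, by 0.52 ± 0.15 with its call kept in 5 of 14 such fits.

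Lipid mediators showed 5 rises and 2 falls among 27 tested enzymes and receptors (25.9%). Pla2g7, which inactivates platelet-activating factor, was at 5.51 to 6.00 on RA and 6.38 to 6.89 on CS arrays, without overlap, and rose 1.77-fold (0.82 ± 0.10, adjusted p = 4.65e-05). Cyp4f18, which inactivates leukotriene B4 in mouse neutrophils, was at 6.75 to 7.71 on RA and 7.87 to 9.00 on CS arrays and rose by 0.95 ± 0.18. Receptors for prostacyclin (Ptgir, 0.41), prostaglandin E2 (Ptger3, 0.44) and thromboxane (Tbxa2r, 0.48, second probe 0.27 and not called) rose too. Ptges3 (-0.36), a prostaglandin E synthase that also serves as a co-chaperone, and the lysosomal Pla2g15 (-0.28) fell.

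Of 35 tested genes for epithelial ion and water transport 2 rose and 3 fell (14.3%, near the 12.8% over all features). Kcnj15, a potassium channel, was at 9.15 to 9.60 on RA and 8.31 to 8.75 on CS arrays and fell by 0.80 ± 0.10 without overlap. Scnn1a, the alpha subunit of the sodium channel that clears airway liquid, fell by 0.31 ± 0.08. Slc12a2, the chloride entry cotransporter of secretory cells, rose by 0.40, and of its 3 other kept probes 1 was called. Of 21 tight junction genes 2 rose and 1 fell (14.3%). Cldn4, a claudin of alveolar epithelium, rose by 0.76 ± 0.18 and Ocln, occludin, fell by 0.43 ± 0.10. Cldn2, which forms a cation pore, was called higher but was not well above background on any RA array and was detected on 2 CS arrays, so no fold is given.

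Hyaluronan is a matrix sugar chain whose length depends on its synthases and hyaluronidases. Cemip2, which degrades hyaluronan at the cell surface in mice, was at 11.05 to 11.82 on RA and 10.35 to 11.06 on CS arrays and fell by 0.76 ± 0.09, and its 2 other probes gave -0.78 and -0.82. Hyal2, a membrane hyaluronidase, fell by 0.43 ± 0.09. The synthase Has3 was not well above background on RA arrays, was detected on 5 of 7 CS arrays and was at least 1.21-fold higher in CS. These were the called genes among 32 tested genes for proteoglycans, hyaluronan and heparan sulphate (9.38%, below the 12.8% over all features).

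**Figure D3:**
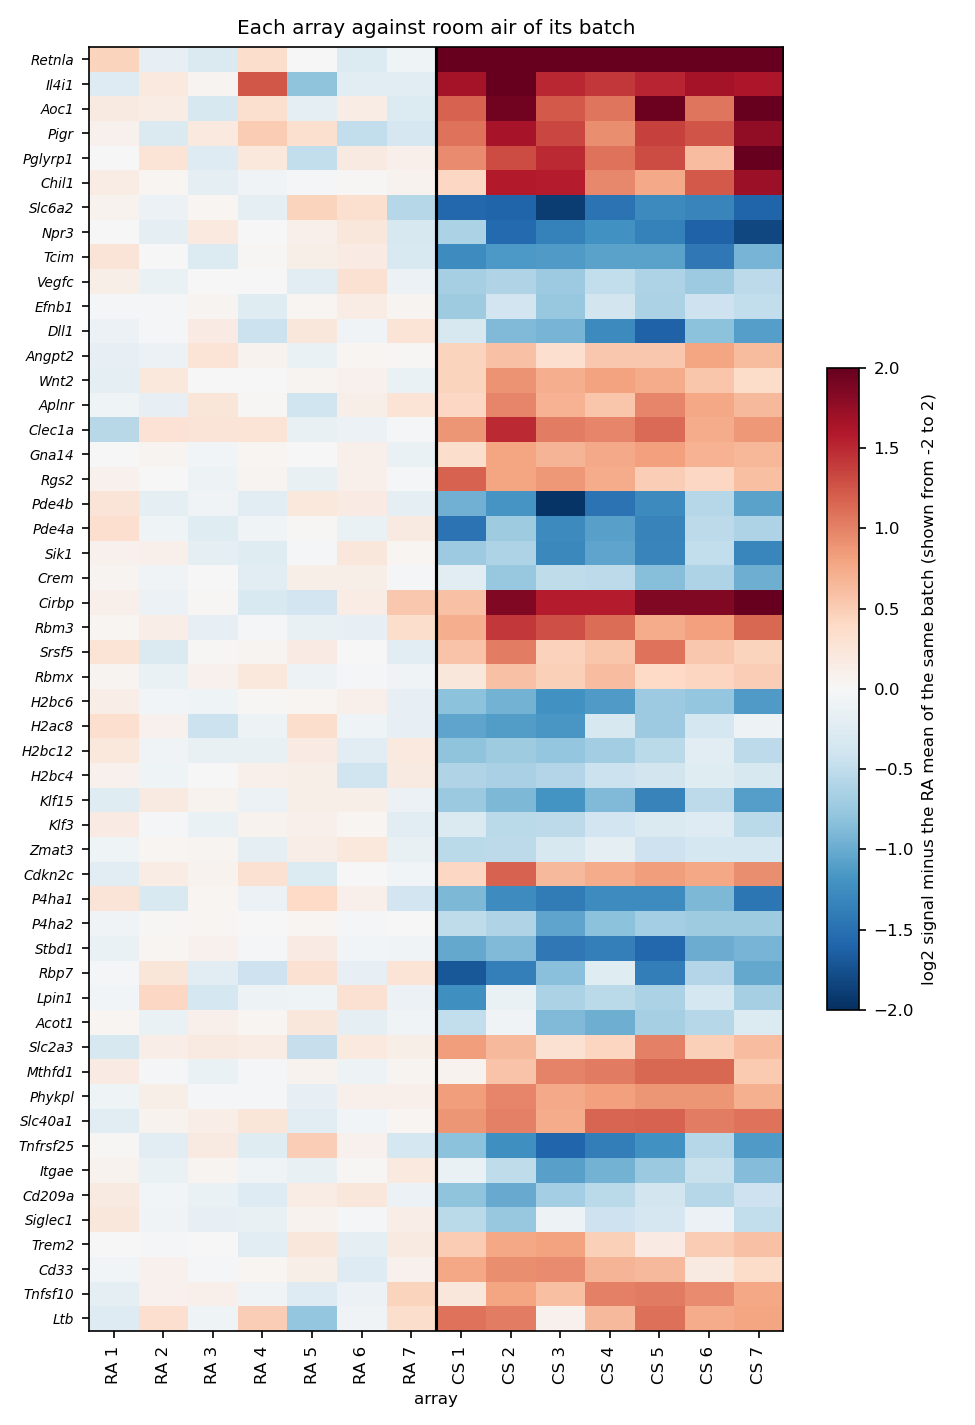
Each cell is the log2 signal of a gene (rows) on an array (columns) minus the RA mean of the same batch, from blue (lower) to red (higher), shown from -2 to 2. RA arrays are left of the line and CS arrays right of it. Retnla is above its RA mean on all 7 CS arrays, and Slc6a2 and Npr3 are below theirs on all 7.

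Markers of other cells that a lung sample can hold were read beside these results. Red cell genes fell most as a list. Of 6 tested 0 rose and 4 fell, with a median of -1.69, and their mean level was 6.55 to 9.12 on RA and 5.80 to 7.72 on CS arrays. Hbb-bt and Hbb-b2, beta globins that are close copies, fell (-1.98 ± 0.45 and -1.87 ± 0.50), and the heme enzyme Alas2 by 1.69 ± 0.48 with its call kept in 6 of 14 fits that left out 1 array. Slc4a1, the anion exchanger of red cells, was not well above background on any CS array and at least 1.37-fold lower there. Heart and pulmonary vein muscle genes spanned 5.91 to 9.70 on RA and 5.78 to 9.84 on CS arrays, and 0 of 13 were called. Of 17 alveolar macrophage markers Trem2 and Gpnmb (0.47, with other probes at 0.35, called, and 0.32 and 0.13, not called) rose and Krt79 fell by 0.46, a call kept in 4 of 14 such fits. Their mean level was 8.25 to 8.77 on RA and 8.20 to 8.66 on CS arrays. The part of red cell content in the other changes was not tested.

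**Figure D4:**
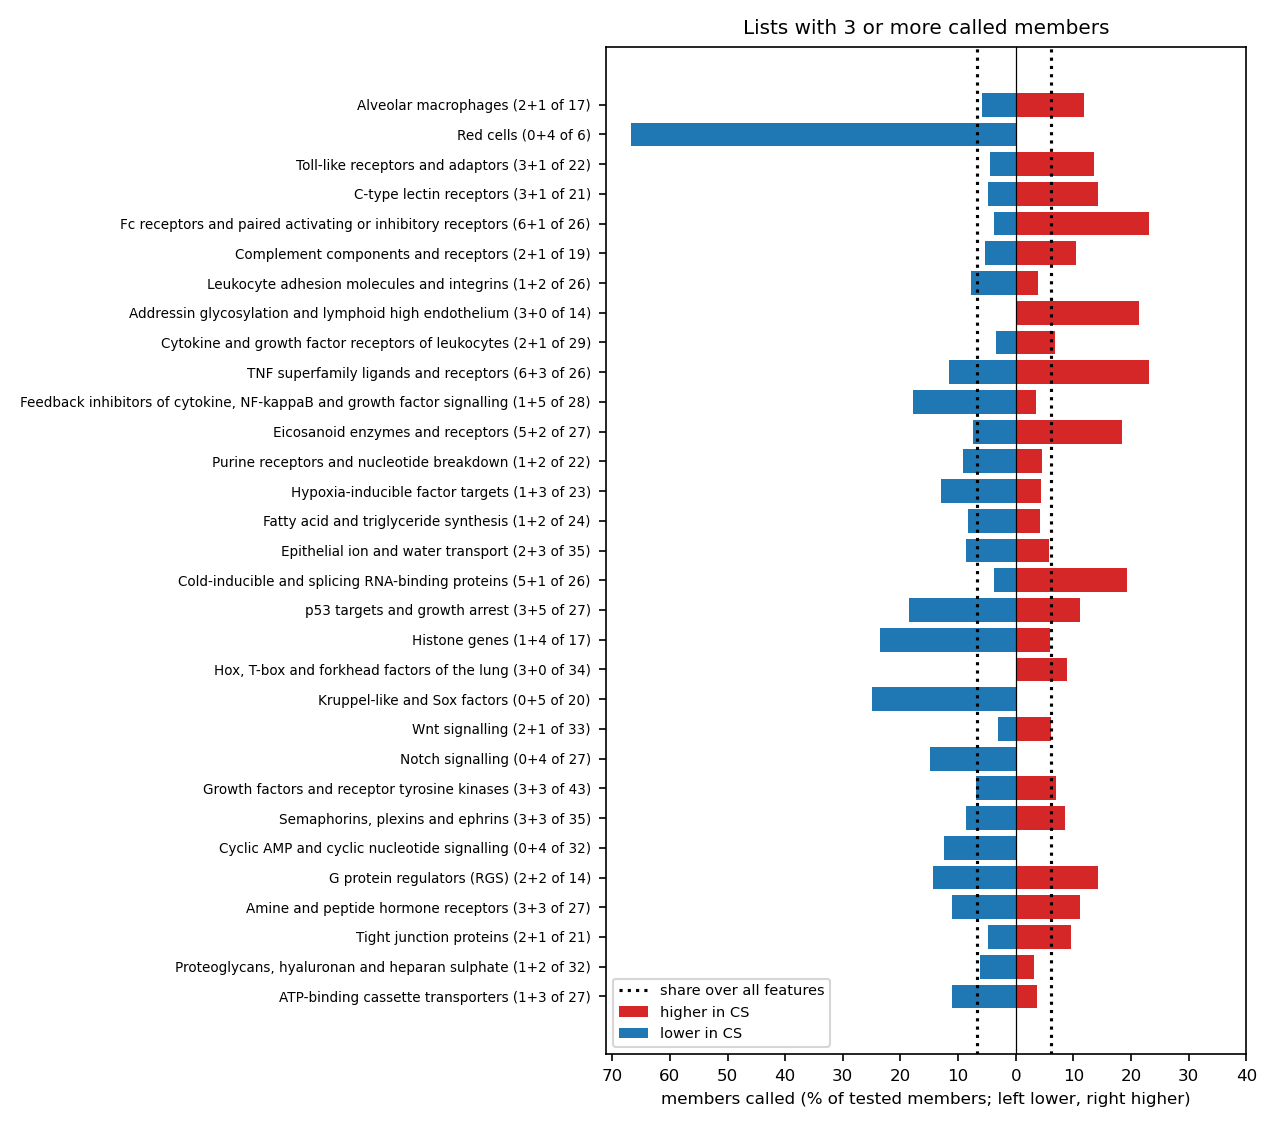
Gene lists with 3 or more called members. Bars give the share of tested members that were lower (left) or higher (right) in CS, in percent, the counts stand beside each name as higher plus lower of tested, and dotted lines mark the shares over all features (6.09% higher, 6.73% lower).

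Counts are given for some of the 192 symbol stems with at least 8 tested members, to be read against the 12.8% called over all features. These were picked after the values were seen, are not a full list of the stems with such shares, and are descriptions. Of 25 genes of the Rbm stem, RNA-binding motif proteins, 1 rose, on the Rbm3 probe described above, and 7 fell (32%). Rbm15, which guides RNA methylation, fell by 0.96 ± 0.10 (adjusted p = 1.00e-05). Of 10 carbohydrate sulfotransferases of the Chst stem 3 rose (30%), Chst3 (0.86), Chst2 (0.51) and Chst5 (0.38). Of 8 Gimap GTPases of lymphocytes Gimap6 (0.70) and Gimap1 (0.35) rose (25%). Of 9 Cdkn genes, most of them inhibitors of the cell cycle kinases, 1 rose and 4 fell (55.6%), and of 11 Ptpn tyrosine phosphatases 3 rose and 2 fell (45.5%).

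Of 8 tested Serpina genes 0 rose and 3 fell (37.5%). These were Serpina1a (-0.999 ± 0.16), Serpina1b (-1.13 ± 0.19) and Serpina1d (-1.12 ± 0.21), mouse copies of alpha-1-antitrypsin, the inhibitor of neutrophil elastase. Serpina1b was at 7.42 to 8.90 on RA and 6.36 to 7.46 on CS arrays. The copies are nearly identical, so the probes may read the same transcripts and count as 1 observation. Of 10 Abca transporters 0 rose and 3 fell (30%), among them Abca1, the cholesterol exporter (-0.68 ± 0.17). In batch 1 Abca1 was at 7.77 to 8.29 on RA and 6.88 to 7.86 on CS arrays. In batch 2 it was at 5.51 to 6.09 on RA and 4.77 to 5.63 on CS arrays. The Abca1 call was lost without the batch term and with batch as a random block.

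The 2 batches gave the same sign for 1630 of the 1631 called features, although the fit over both batches used the arrays of each. The exception was Reg3b, an antibacterial lectin, which was detected on 3 of 7 RA arrays and was not well above background on any CS array. Over both batches Reg3b was called lower in CS, but it was not lower within batch 2, so no fold is given. Its change read -1.71 in batch 1 and 0.01 in batch 2, against signal at background, so these sizes cannot be read. The test of smoke by batch called 2 features over the whole table (0.0157%), Reg3b and Katnal1. Katnal1, a microtubule-severing protein, was at 0.56 in batch 1 and -0.47 in batch 2 and was not called over both.

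The 6 losartan arrays entered the normalization but no comparison, and some went against their labels in the genes above. The libraries labelled RA_Los 2 and RA_Los 3 had Dbp at 11.91 and 12.51, above all RA arrays, and the library labelled CS_Los 2 had it at 8.66, within the RA range. Fam107a was at 6.95 and 6.47 on the first pair and at 8.27 on the last, and P4ha1 at 7.53, 7.27 and 8.98. Cyp1a1 was detected on the libraries labelled RA_Los 2 and CS_Los 1 and not on the other four. On the CS_Los 1 library Cyp1a1 was at 7.97, Retnla at 10.87 and Fam107a at 6.11, inside or above the CS range for the first and inside it for the others.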

How the data were processed

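Total RNA of whole lung was labelled with biotin and read on Illumina bead arrays, 1 array per sample. The deposited signal table holds probe intensity on a linear scale before normalization, made in BeadStudio per the submitters' processing notes. Each deposited signal comes with a detection p-value, per the file headers. The authors also deposited log2 values, which equal the log2 signal shifted to a median of 8 on each array (largest difference 0.00694), and these served as an alternative.

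Of 25697 probes, 23141 have 1 gene symbol in the platform annotation, 0 have several and 2556 have none. Background was corrected with nec of limma 3.58.1 in R 4.3.3 (negative controls inferred from detection p, offset 16), then all 20 arrays were quantile normalized. A probe stayed if its detection p was under 0.05 on 3 arrays or more, which held for 17012 probes (66.2%). Each gene is read by its brightest kept probe, giving 11196 named genes and 1523 unnamed probes. CS was compared with RA over 14 arrays with lmFit and eBayes and batch as a term, and the interaction of smoke with batch was tested in the same way. The pipeline was tested on simulated data. The number of arrays limits the precision.

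The genes and lists were chosen with earlier results of these data known. Named genes are called genes outside the neutrophil, heat shock, clock, glucocorticoid and early response lists, with the same sign in both batches. They are the 15 largest changes each way and the 6 largest moderated statistics each way on genes detected on all 14 arrays, genes detected on all arrays of one group only, and up to 4 called members of each list. Other called list members, the Serpina, Abca, Rbm, Chst, Gimap, Cdkn and Ptpn genes and the 2 interaction genes were named after their values were seen. Promoter windows cover 125 of the 160 named genes and 9061 tested genes. Alternatives covered background, normalization, detection filters, probe choice, eBayes options, array weights, batch handling, the replicate number as a block, all 20 arrays in the fit and leaving out each array. The same replicate number in RA and CS did not pair the arrays (correlations of deviations from -0.344 to 0.00955).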

Additional observations from a re-analysis of the deposited data

Results flagged for a closer look

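In 8 of 188 groups of 7 arrays, for 94 genes, a single array lay far from the other 6 by Dixon's test. Chance flags about 1 group in 20. On RA 4, Il4i1 was at 6.99 and Chad at 7.49, both above the other RA arrays. On RA 6, H2bc4 was at 12.07 and Cd33 at 5.22, both below the others of their group. Among CS arrays, Scgb3a1 was low on CS 6 (7.90), P4ha2 was low on CS 3 (7.15), Cfb was low on CS 5 (9.49) and Plk2 was high on CS 2 (9.25). A difference between the batches in the smoke effect passed limma's interaction test for 2 genes. The effect on Reg3b was 1.72 higher on the log2 scale in batch 2 than in batch 1 (adjusted p = 0.00197). Reg3b was detected on 3 RA and 0 CS arrays, so this value is a difference against signal at background and its size cannot be read. The effect on Katnal1 differed by -1.03 (adjusted p = 0.0326).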

How the results depend on the processing

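The 775 higher and 856 lower features became 194 and 245 without the batch term, 42 and 41 in batch 1 alone, 308 and 393 in batch 2 alone and 334 and 411 with all 20 arrays in the fit. The replicate number as a block gave 616 and 717. Leaving out each array gave 563 to 913 higher and 631 to 1005 lower. The 2 features of the smoke by batch test became 0 without background correction, with 75th percentile centring, with the authors' log2 values or with detection on at least 7 arrays, 1 with the trend and robust options and 3 with no detection filter, and 1 to 3 when each array was left out. With the probe of each gene held, the direction of 160 named genes was the same under the settings run. For batch 1 alone and batch 2 alone this was fixed in advance, as genes were named only with the same sign in both. Under the stricter filters the entry for Cldn2 read -0.10 with detection on at least 7 arrays and -0.10 with detection p under 0.01. The Cldn2 probe used was detected on 0 RA and 2 CS arrays, and no other kept probe of the gene was found. These values therefore cannot be tied to a probe of Cldn2, and no direction is drawn from them. Another kept probe had the opposite sign for Rbm3 (-0.75 and -0.16), Ifitm1 (-0.02), Col17a1 (-0.02), Rgs3 (-0.09), Lipe (0.01) and Abcc10 (0.04). In the 14 fits that each left out 1 array, 124 named genes kept their call and 36 lost it at least once. The number losing it was 134 in batch 1 alone, 71 in batch 2 alone, 87 without the batch term, 54 with all 20 arrays and 22 with the block. The causes were not tested. Dim probes limit what can be read for genes that include Cyp1a1, Has3, Slc4a1, Cldn2, Reg3b, Tlr1 and H2ac8. The same holds for Chst5 (detected on 2 RA and 6 CS arrays) and Chrm3 (4 RA and 7 CS). It also holds for Notch2 (6 RA and 3 CS) and Hk3 (5 RA and 7 CS).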
